A study of Mus musculus with 13 samples.

Results

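The slow or cardiac troponin genes Tnni1 and Tnnt2 and the fast troponin genes Tnni2 and Tnnt3 lie in 2 clusters of the mouse genome, and HA-tagged Myf6 gave recurrent CUT&RUN peaks in both. The members were all peaks of 13 deposited peak lists that shared at least 1 bp with a window around each gene pair in the GRCm39 build, chr1:135660000-135830000 for Tnni1 and Tnnt2 and chr7:141946000-142120000 for Tnni2 and Tnnt3. The windows span 170 kb and 174 kb and were set by gene position, not by signal. They held 90 of the 178951 peaks of the 13 lists, 47 at Tnni1 and Tnnt2 and 43 at Tnni2 and Tnnt3. When the 12 HA and IgG lists were merged wherever intervals shared at least 1 bp, the windows held 36 of 71864 regions, 20 and 16.

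The study asked where Myf6 binds when fibroblasts are turned towards muscle. CUT&RUN uses an antibody to direct a nuclease to bound chromatin, and the released fragments are sequenced. Mouse embryonic fibroblasts with the alleles Pax7-CreERT2, Rosa26-LSL-tdTomato and CAG-rtTA3 were transduced with a lentivirus that carries mouse Myf6 with 3 HA tags under a TRE promoter, so the factor came from a transgene and the HA antibody does not see endogenous Myf6. All groups spent 24 h in iMPC medium. The +Myf6+F/R/C group received 2 µg/mL doxycycline with 5 µM Forskolin, 5 µM RepSox and 3 µM CHIR99021, the +Myf6 group received doxycycline alone, and the group without doxycycline received none of these. Forskolin raises cyclic AMP, RepSox blocks TGF-β receptor signalling, and CHIR99021 is an inhibitor of GSK3. Each group had 2 HA and 2 control IgG libraries, and 1 further library of +Myf6+F/R/C cells was made with an antibody against H3K27me3, the histone mark of Polycomb repression. The labels do not say whether replicates were separate cultures, so the spread between them may be technical.

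Troponin is the calcium switch of the thin filament of striated muscle. Troponin C binds calcium, troponin I holds back the interaction of actin and myosin until it does, and troponin T ties the complex to tropomyosin. Tnni1 encodes the slow skeletal troponin I and Tnnt2 the cardiac troponin T, and both are also made in embryonic skeletal muscle. Tnni2 and Tnnt3 encode the troponin I and troponin T of fast skeletal fibres. In the RefSeq gene order of GRCm38.p6, Lad1 lies between Tnni1 and Tnnt2, with Phlda3 and Csrp1 on one side and Pkp1 on the other. Lsp1 and Prr33 lie between Tnni2 and Tnnt3, with Syt8 on one side and Mrpl23 and Nctc1 on the other. That order is of another build than the peaks, so peaks were placed within the windows and not assigned to a gene, exon or promoter.

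Myf6 belongs to the myogenic basic helix-loop-helix factors, which bind the E-box, CANNTG. The 250 bases before the first listed start of Tnni1 and of Tnnt2 are shown for their E-boxes, which are in capitals. They are RefSeq sequences of GRCm38.p6, chromosome 1, plus strand, 5′ to 3′, and whether an HA peak lies over them was not determined.
Tnni1: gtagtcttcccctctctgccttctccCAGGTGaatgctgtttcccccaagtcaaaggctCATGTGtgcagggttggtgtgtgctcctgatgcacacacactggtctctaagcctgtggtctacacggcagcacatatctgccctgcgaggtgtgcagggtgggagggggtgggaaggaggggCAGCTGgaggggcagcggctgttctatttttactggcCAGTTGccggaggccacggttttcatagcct
Tnnt2: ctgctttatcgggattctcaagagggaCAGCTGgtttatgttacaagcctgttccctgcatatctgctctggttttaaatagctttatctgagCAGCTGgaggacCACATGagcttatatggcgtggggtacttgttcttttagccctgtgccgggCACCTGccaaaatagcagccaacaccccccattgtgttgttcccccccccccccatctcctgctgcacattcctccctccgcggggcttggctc
Each held 4 E-boxes on either strand, a number reached by 3.84% of the 32851 promoter windows of that length in the table. Tnni1 had 1 CAGCTG and 1 CAGGTG (counted with its complement CACCTG), and Tnnt2 had 2 and 1. CAGCTG was found in 13.0% and CAGGTG in 17.2% of all windows, and these are all forms of the E-box. Tnnt2 also held 1 CATTCC, the MCAT motif, which 12.6% of windows hold on either strand. The MEF2 motif was searched in a single strict form: C or T, TA, 4 bases of A or T, TA, then A or G. That form was found in neither, against 2.92% of windows, and looser A/T-rich matches were not counted. At the second listed start of each gene, the E-boxes numbered 2 for Tnni1, where the window overlaps the first, and 1 for Tnnt2. Tnni2 and Tnnt3 were not in the promoter table.

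The depth of a library was recovered from its list as the mean number of fragments per 10 kb. The 4 induced HA libraries (those of +Myf6+F/R/C and +Myf6 cells) had 30.6 to 61.9, the uninduced HA libraries 30.6 and 23.7, the 6 IgG libraries 8.25 to 22.7 and the H3K27me3 library 54.3. Fold is the authors' enrichment at a summit over the local background of the same library, and pileup is the number of fragments over the summit as recovered from the fold and its p-value. The lowest pileup of any called peak was 3 to 6 fragments, so the lack of a peak means a weaker signal than that list could call, not the absence of signal.

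Both troponin windows had many HA peaks after induction of Myf6 and few or none in the controls. At Tnni1 and Tnnt2, +Myf6+F/R/C cells had 12 and 8 HA peaks (replicates 1 and 2), +Myf6 cells 9 and 9, and cells without doxycycline 1 and 1. All 6 IgG libraries had 0 peaks there. At Tnni2 and Tnnt3, +Myf6+F/R/C cells had 9 and 7 HA peaks, +Myf6 cells 6 and 11, and cells without doxycycline 1 and 0. A single IgG peak was called, in +Myf6 replicate 2. Every induced HA library thus lay above every control library in both windows.

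**Figure D1:**
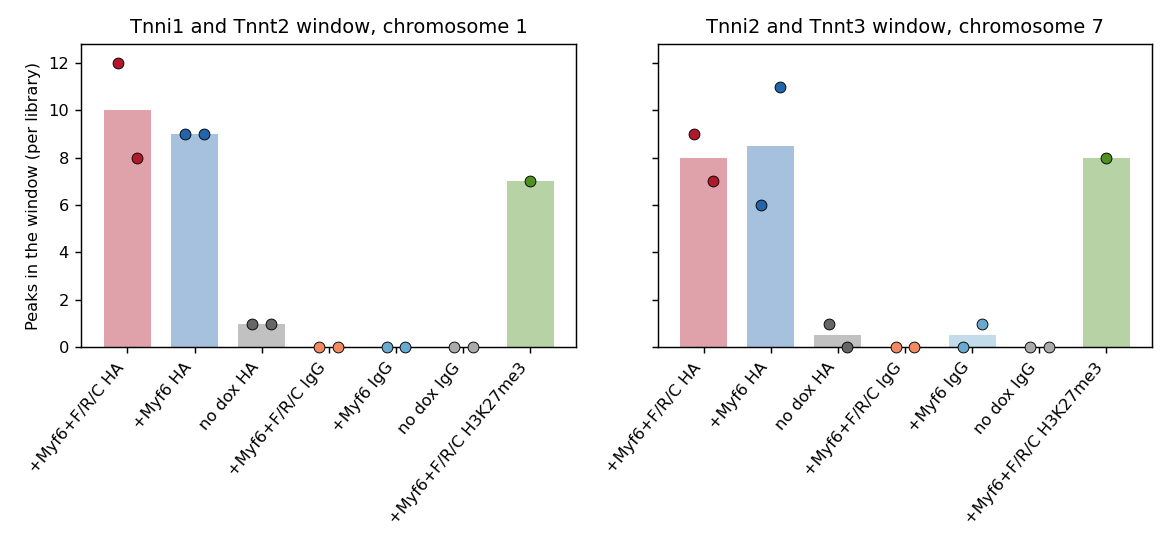
Number of peaks per library (y axis) in each troponin window by group (x axis), where points are libraries and bars their mean. The 4 induced HA libraries lie between 8 and 12 peaks at Tnni1 and Tnnt2 and between 6 and 11 at Tnni2 and Tnnt3, and no HA library without doxycycline or IgG library exceeds 1.

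Against IgG from the same nuclei, induced HA libraries had 9.5 ± 1.73 peaks and IgG libraries 0 at Tnni1 and Tnnt2, and 8.25 ± 2.22 and 0.25 ± 0.5 at Tnni2 and Tnnt3 (mean ± SD, n = 4 each). The differences of 9.5 and 8 peaks each gave an exact two-sided permutation p of 0.0286, the smallest possible with 4 libraries against 4, with 4 of 4 HA libraries above all IgG libraries. Adjusted over the 11 comparisons of whole windows (Benjamini-Hochberg), each permutation p was 0.157 and neither passed 0.05. Tests at single regions were not part of this set and are given unadjusted. With each HA library paired to the IgG library of the same nuclei (the replicate block), the exact permutation p was 0.125 in both windows, the smallest that 4 pairs allow. The IgG libraries were also shallower. With each HA list rescaled to the depth of its own IgG library, 1, 0, 2 and 4 HA peaks remained callable at Tnni1 and Tnnt2 (+Myf6+F/R/C replicates 1 and 2, then +Myf6 replicates 1 and 2), against 0 IgG peaks. The Tnni2 and Tnnt3 window kept 4, 1, 4 and 6, against 0, 0, 0 and 1 IgG peaks. The rescaling also applied the lowest −log10 p of the IgG list, 4.31 to 5.27, against 3.51 to 3.67 in the induced HA lists. Depth and cutoff can therefore not be told apart in this loss. Most HA peaks were lost at Tnni1 and Tnnt2, while the +Myf6 libraries kept 4 of 6 and 6 of 11 at Tnni2 and Tnnt3. The +Myf6+F/R/C libraries kept 4 of 9 and 1 of 7 there.

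Compared with cells without doxycycline, +Myf6+F/R/C cells had 9 more HA peaks at Tnni1 and Tnnt2 (10.0 ± 2.83 and 1 ± 0) and 7.5 more at Tnni2 and Tnnt3 (8 ± 1.41 and 0.5 ± 0.707; mean ± SD, n = 2 each). In +Myf6 cells the excess was 8 peaks in each window (9 ± 0 and 1 ± 0, then 8.5 ± 3.54 and 0.5 ± 0.707). With 2 libraries against 2 the smallest exact permutation p is 0.333, which all 4 comparisons reached, so they could not pass 0.05. Among peaks with a −log10 q of at least 5 and at least 10, the excess was 4.5 and 0.5 with +Myf6+F/R/C and 3 and 0.5 with +Myf6 at Tnni1 and Tnnt2. The Tnni2 and Tnnt3 window had 5 and 2.5 with +Myf6+F/R/C and 4 and 1.5 with +Myf6. Rescaled to the depth of the shallower uninduced library, 4 and 5 +Myf6+F/R/C peaks and 7 and 8 +Myf6 peaks remained at Tnni1 and Tnnt2, and 6 and 4, and 5 and 9, at Tnni2 and Tnnt3.

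The mean number of peaks with and without the compounds differed by less than the 2 replicates with the compounds did. With Myf6 alone the replicates also differed by more at Tnni2 and Tnnt3, but were equal at Tnni1 and Tnnt2. The mean number with the compounds minus that with Myf6 alone was 1 at Tnni1 and Tnnt2 and -0.5 at Tnni2 and Tnnt3 (exact permutation p = 1 for both, n = 2 each). The signs differed between replicate numbers, with 12 against 9 and 8 against 9 peaks at Tnni1 and Tnnt2, and 9 against 6 and 7 against 11 at Tnni2 and Tnnt3. No region of either window was called in 2 of 2 lists with the compounds and in 0 of 2 with Myf6 alone (4.12% of all regions), or the other way round (2.34%).

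Both windows were denser in peaks than the genome. Induced HA libraries had 4.71 to 7.06 peaks per 100 kb at Tnni1 and Tnnt2 and 3.45 to 6.32 at Tnni2 and Tnnt3, which was 3.90 to 4.95 and 3.22 to 4.78 times the average of the same library over the genome. The H3K27me3 library was 3.32 and 3.70 times its own average. The uninduced HA lists were 7.17 and 3.70 times theirs at Tnni1 and Tnnt2 and 7.01 and 0 times at Tnni2 and Tnnt3, each from 1 peak or none, so density above the genome was not particular to induced cells. Between the windows the induced density differed by 0.847 ± 1.37 peaks per 100 kb, Tnni1 and Tnnt2 minus Tnni2 and Tnnt3 (mean ± SD of 4 libraries), and was higher at Tnni1 and Tnnt2 in 3 of 4 libraries (exact sign flips, p = 0.375, smallest possible 0.125). The direction turned among stronger peaks, to -0.0862 at a −log10 q of at least 5 and -0.855 at at least 10.

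Of the 35 regions with an induced HA peak, 8 were in all 4 induced lists, 5 in 3 lists, 0 in 2 lists and 22 in 1 list. At Tnni1 and Tnnt2, 4 of 20 regions (20.0%) were in all 4 lists, and at Tnni2 and Tnnt3 4 of 16 (25.0%), against 14.8% of all regions. In at least 3 lists there were 35.0% and 37.5%, against 26.8%. Regions in 1 induced list only made up 65.0% and 60.0% of those with an induced peak, against 52.6% over the genome. The single-list peaks had folds of 3.24 to 6.40 and pileups of 7 to 19 fragments at Tnni1 and Tnnt2, and folds of 3.51 to 5.17 and pileups of 6 to 13 at Tnni2 and Tnnt3. The fold of 6.40 was at 135.780 Mb in +Myf6+F/R/C replicate 2, where it was the highest of the window. Position within the windows was uneven. No induced HA summit lay beyond the region 133 kb from the start of the Tnni1 and Tnnt2 window, and none before the region 38.2 kb from the start of the Tnni2 and Tnnt3 window.

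**Figure D2:**
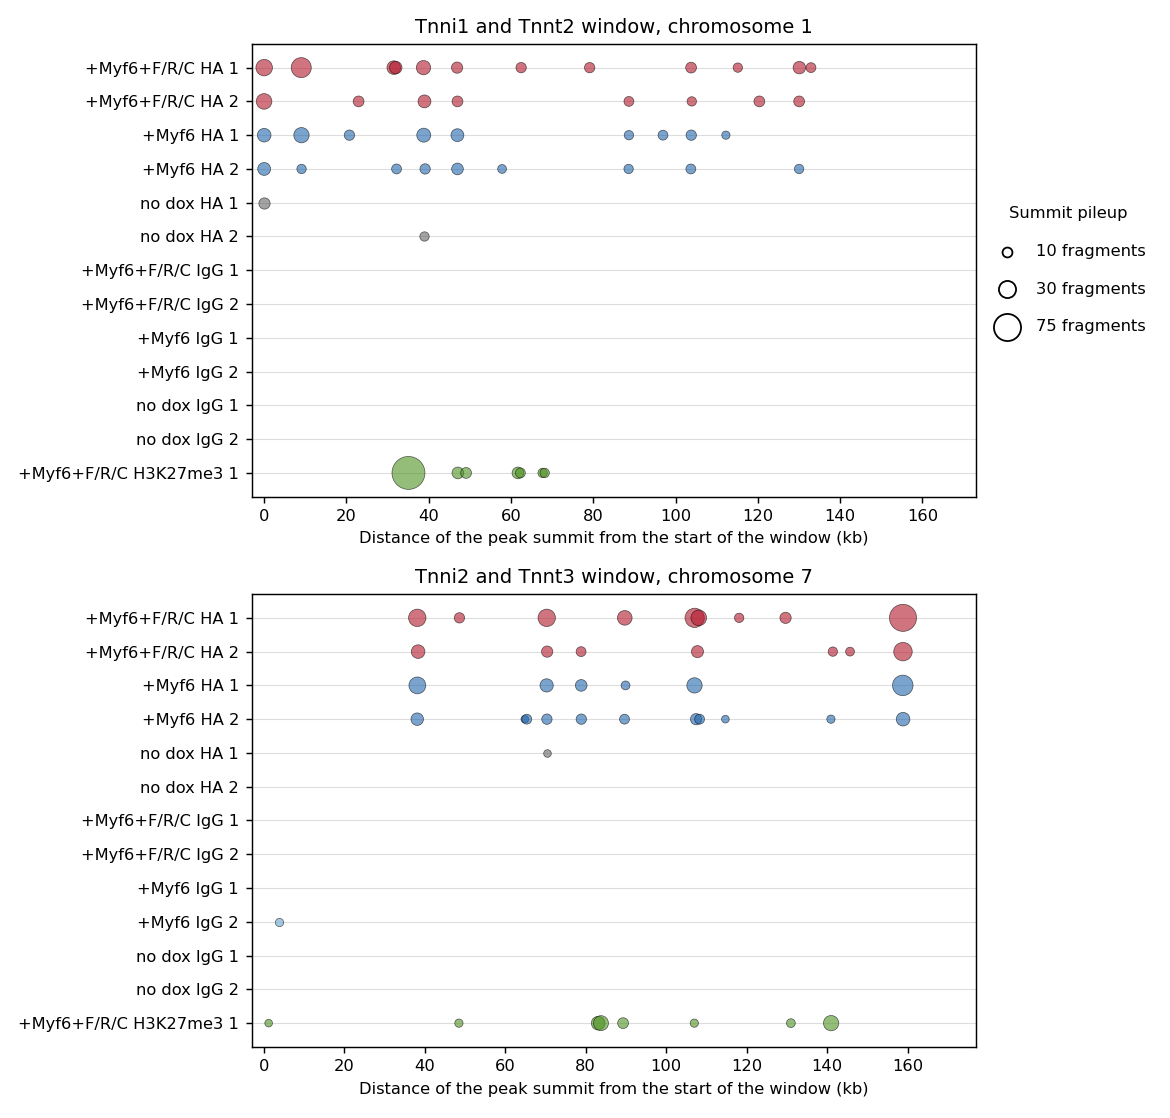
Peak summits of the 13 libraries (rows) by distance from the start of each window in kb (x axis), where the area of a marker is the summit pileup in fragments. Columns of markers shared by the 4 induced HA rows are the recurrent regions, and the H3K27me3 row has its largest pileup, 111 fragments, in a gap between HA regions at Tnni1 and Tnnt2.

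Sites, here regions with a peak in both HA lists of a treatment and in none of the 8 control lists (2 HA without doxycycline and 6 IgG), numbered 3 with +Myf6+F/R/C and 4 with +Myf6 at Tnni1 and Tnnt2. The Tnni2 and Tnnt3 window had 3 and 5. As shares of the regions these were 15.0% and 20.0%, then 18.8% and 31.2%, against 21.0% of all regions with +Myf6+F/R/C and 17.5% with +Myf6. The shares of +Myf6+F/R/C sites were thus near or below the background. The treatments shared 2 sites at Tnni1 and Tnnt2 and 3 at Tnni2 and Tnnt3.

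The strongest fold at Tnni1 and Tnnt2 was at 135.669 Mb (chr1:135668723-135669382). Its folds were 8.65 in +Myf6+F/R/C replicate 1, 8.53 in +Myf6 replicate 1 and 4.56 in +Myf6 replicate 2, with pileups of 41, 24 and 9 fragments. No peak was called there in +Myf6+F/R/C replicate 2 or in any control list. The fold was within the strongest 3.62% of the list in +Myf6+F/R/C replicate 1 and 3.69% in +Myf6 replicate 1, but only within 72.3% in +Myf6 replicate 2, and the summits of the 3 libraries lay within 68 bp. The region was high in both replicate 1 libraries and weak or uncalled in both replicate 2 libraries. Library names begin with the same prefix within each induced replicate number, and the meaning of the prefix is not given.

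A region at 135.699 Mb (chr1:135698652-135699266) was found in all 4 induced lists. Folds were 5.39 and 4.01 in +Myf6+F/R/C cells and 6.42 and 3.98 in +Myf6 cells, with pileups of 21 and 17, and of 20 and 11 fragments. The treatments overlapped. Without doxycycline, replicate 2 had a peak there with a fold of 5.84 and a pileup of 9 fragments, and replicate 1 had none. Of the induced folds only 6.42 was higher. Pileup divided by fragments per 10 kb was 0.38 in this uninduced library. It was 0.339 and 0.415 in +Myf6+F/R/C cells and 0.471 and 0.36 in +Myf6 cells. The uninduced value thus lay within the induced ones. Fragments were 108 bp in the uninduced list, and fragment length was not corrected for.

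The leftmost region, at 135.660 Mb (chr1:135659395-135660162), straddled the edge of the window and was also in all 4 induced lists. The folds were 4.63 and 5.09 in +Myf6+F/R/C cells, 4.31 and 5.06 in +Myf6 cells and 7.21 in replicate 1 without doxycycline. The uninduced fold was thus higher than all 4 induced folds. Per depth (pileup divided by fragments per 10 kb), the same peaks had 0.452 and 0.611 in +Myf6+F/R/C cells, 0.448 and 0.556 in +Myf6 cells and 0.424 in the uninduced library. On that scale the uninduced value was the lowest of the 5, but close to the 0.448 and 0.452 of the replicate 1 libraries. Fragments were 152 bp in that list, against 161 to 172 bp in the induced lists. Longer fragments raise the pileup and were not corrected for, so no order can be read between these values.

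At 135.707 Mb (chr1:135706606-135707242) fold and pileup were lower in both libraries with the compounds than in both without. Folds were 3.56 and 3.33 in +Myf6+F/R/C cells, against 5.70 and 6.05 in +Myf6 cells, and pileups were 13 and 12, against 17 and 14 fragments. Pileup per depth was 0.210 and 0.293, against 0.401 and 0.458. Neither measure overlapped between the treatments, with differences of -2.43 in fold and -0.178 in pileup per depth (exact permutation p = 0.333 for each, n = 2 each, the smallest possible). Of the regions in all 4 induced lists over the genome, 17.8% had both folds lower with the compounds. For pileup per depth the share was 22.1%. The summits lay within 92 bp, and no control list had a peak here. An H3K27me3 peak shared bases with the region, with a fold of 3.96 and a pileup of 14 fragments in +Myf6+F/R/C cells.

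The remaining recurrent regions at Tnni1 and Tnnt2 had no control peaks. At 135.764 Mb (chr1:135763654-135764102), in all 4 lists, folds were 5.11 and 4.61 in +Myf6+F/R/C cells and 4.57 and 5.64 in +Myf6 cells. There the folds overlapped, but pileup per depth did not (0.194 and 0.220, against 0.259 and 0.327). Both values per depth were lower with the compounds at 22.1% of regions in all 4 induced lists over the genome. At 135.749 Mb (chr1:135748515-135748816) folds were 5.46 in +Myf6+F/R/C replicate 2, and 5.44 and 5.30 in +Myf6 replicates 1 and 2. At 135.790 Mb (chr1:135789715-135790362) they were 5.70 and 5.32 in +Myf6+F/R/C cells and 5.44 in +Myf6 replicate 2. Pileups at these 3 regions were 9 to 16 fragments, where the lowest pileup called in the 4 induced lists was 4 to 6.

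The region with the highest HA pileups of both windows was at the far end of the Tnni2 and Tnnt3 window, at 142.105 Mb (chr7:142104098-142105546). Pileups were 75 and 35 fragments in +Myf6+F/R/C cells and 43 and 19 in +Myf6 cells, and no control list had a peak there. The summits of the 4 libraries lay within 74 bp, and the peaks were 1449 and 1241 bp wide with the compounds, against 750 and 664 bp without. The share of regions with such a split in width over the genome was not computed. These lists also differed in depth, with 61.9 and 40.9 fragments per 10 kb against 42.4 and 30.6. Fragments were 164 and 172 bp, against 161 bp in both lists without the compounds. What set the widths was not tested. Folds were 6.97 and 6.90, against 8.73 and 7.22, and so did not overlap (difference -1.04, exact permutation p = 0.333, n = 2 each). Both folds were lower with the compounds at 17.8% of regions in all 4 induced lists over the genome. Pileup per depth did overlap, with 1.21 and 0.855, against 1.01 and 0.622. The pileup expected from the local background, divided by depth in the same way, was 0.16 and 0.103 with the compounds, against 0.0952 and 0.0579. Whether the local background accounts for the lower fold was not tested.

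At 141.984 Mb (chr7:141983754-141984502) folds were 6.57 and 5.87 in +Myf6+F/R/C cells and 7.57 and 6.03 in +Myf6 cells, and pileups 31 and 19, and 29 and 16 fragments. Folds overlapped between treatments, whereas pileup per depth was 0.500 and 0.464, against 0.683 and 0.524. A split in this direction was found at 22.1% of regions in all 4 induced lists over the genome. No control peak was called at this region.

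The region at 142.016 Mb (chr7:142016037-142016560) had folds of 7.31 and 5.49 in +Myf6+F/R/C cells and 7.37 and 6.31 in +Myf6 cells. Replicate 1 without doxycycline also had a peak here, with a fold of 4.57 and a pileup of 6 fragments. This uninduced fold was below all 4 induced folds, unlike at 135.660 and 135.699 Mb. Of the 8 regions in all 4 induced lists, 3 had an uninduced HA peak, against 25.0% of such regions over the genome, and in each case 1 of the 2 uninduced lists held it. None of the 8 had an IgG peak, so 3 of 8 also had a peak in any control list, against 27.5%. The single IgG peak (chr7:141949868-141950029, fold 6.27, pileup 7 fragments) had no HA peak beside it.

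The widest region, at 142.054 Mb (chr7:142052792-142054409), spanned 1618 bp and held several summits. In the replicate 1 libraries the strongest summits were at 142053087 (+Myf6+F/R/C) and 142053048 (+Myf6), with folds of 7.30 and 7.29 and pileups of 38 and 24 fragments. In the replicate 2 libraries the strongest summits lay further along, at 142053789 (+Myf6+F/R/C) and 142053444 (+Myf6), with folds of 4.58 and 4.88 and pileups of 15 and 13 fragments. The folds thus divided by replicate number and not by treatment, while the replicate 2 summits did not coincide. At 142.025 Mb (chr7:142024574-142025086) folds were 4.44 in +Myf6+F/R/C replicate 2, and 5.68 and 5.28 in +Myf6 cells. At 142.036 Mb (chr7:142035185-142036023) they were 4.84 in +Myf6+F/R/C replicate 1, and 3.49 and 5.29 in +Myf6 cells.

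**Figure D3:**
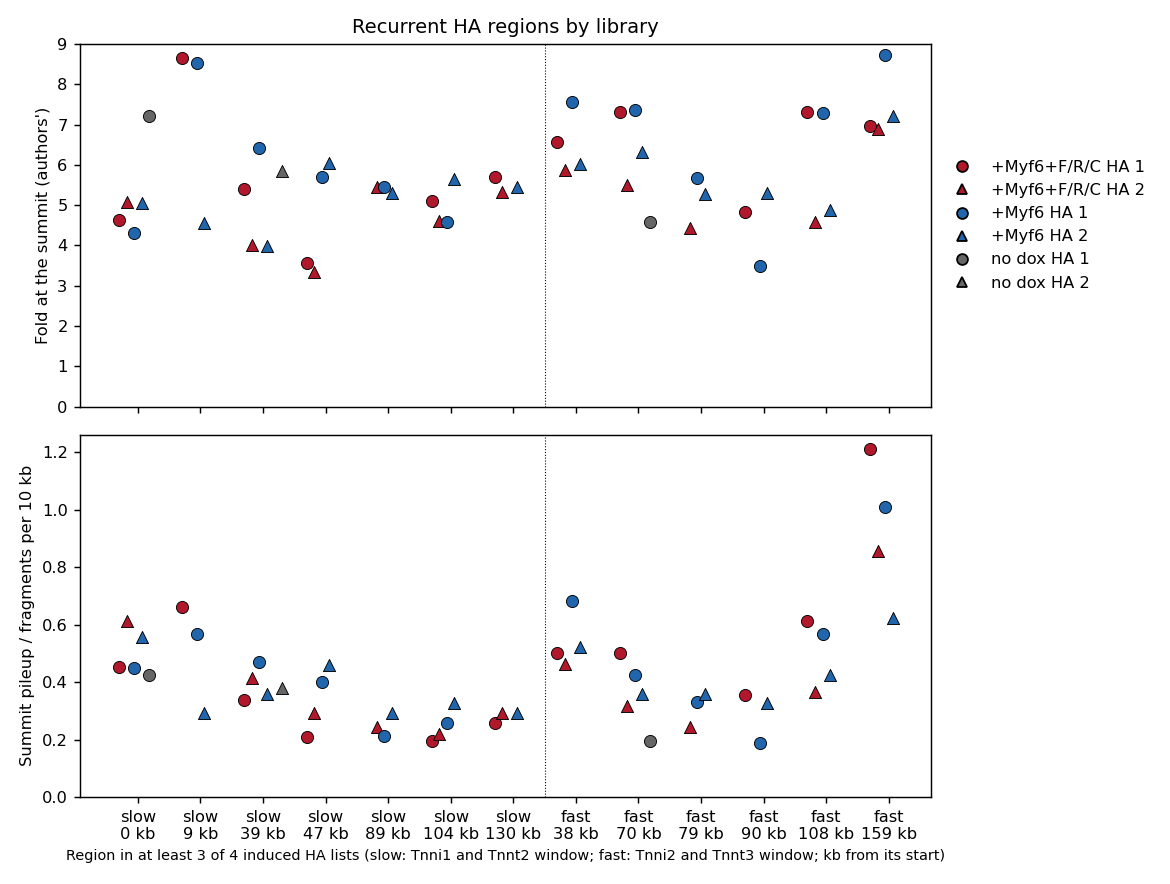
Fold at the summit (upper panel) and summit pileup divided by the fragments per 10 kb of the library (lower panel) at the 13 regions in at least 3 of 4 induced HA lists, where each point is a library and circles and triangles are replicates 1 and 2. In each of the 4 induced libraries the highest value per depth, 0.622 to 1.21, is at the far end of the Tnni2 and Tnnt3 window, and the uninduced fold of 7.21 stands above the induced folds at the first region of the Tnni1 and Tnnt2 window.

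Over the 8 regions in all 4 induced lists, both +Myf6+F/R/C folds were lower than both +Myf6 folds at 2 (17.8% over the genome) and higher at 0 (16.6%). For pileup per depth the counts were 3 lower (22.1%) and 0 higher (13.9%). By replicate number, both replicate 1 folds were above both replicate 2 folds at 4 of the 8 (22.0% over the genome), 3 of which were at Tnni2 and Tnnt3. Both were below at 1, at 135.660 Mb, a split whose share over the genome was not computed.

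The difference between the loci in the fold of their strongest peak was smaller than its spread over libraries. The highest folds at Tnni1 and Tnnt2 were 8.65 and 6.40 in +Myf6+F/R/C cells and 8.53 and 6.05 in +Myf6 cells, and those at Tnni2 and Tnnt3 were 7.31 and 6.90, and 8.73 and 7.22. The difference was -0.134 ± 1.07 (mean ± SD of 4 libraries; exact sign flips, p = 0.75), with Tnni1 and Tnnt2 higher in 1 of 4. In pileup per depth Tnni1 and Tnnt2 were lower in 4 of 4 libraries. The highest values there were 0.662 and 0.611 in +Myf6+F/R/C cells and 0.566 and 0.556 in +Myf6 cells, and at Tnni2 and Tnnt3 they were 1.21 and 0.855, and 1.01 and 0.622. The difference of -0.327 ± 0.215 had an exact sign-flip p of 0.125, the smallest that 4 libraries allow, and 0.458 after adjustment. In both replicate 2 libraries the highest value at Tnni1 and Tnnt2 came from the region at 135.660 Mb that had an uninduced peak.

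Ranked within their own lists, the induced peaks of Tnni1 and Tnnt2 had a median rank of 59.2% and those of Tnni2 and Tnnt3 of 45.9%, where 0 is the strongest. Of 38 peaks at Tnni1 and Tnnt2, 2 were in the strongest 10% of their list (5.26%), and of 33 at Tnni2 and Tnnt3, 4 were (12.1%). The order of the windows was not the same in all libraries. In +Myf6 replicate 1 the medians were 42.5% and 9.9%, and in +Myf6+F/R/C replicate 2 58.6% and 68.5%.

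**Figure D4:**
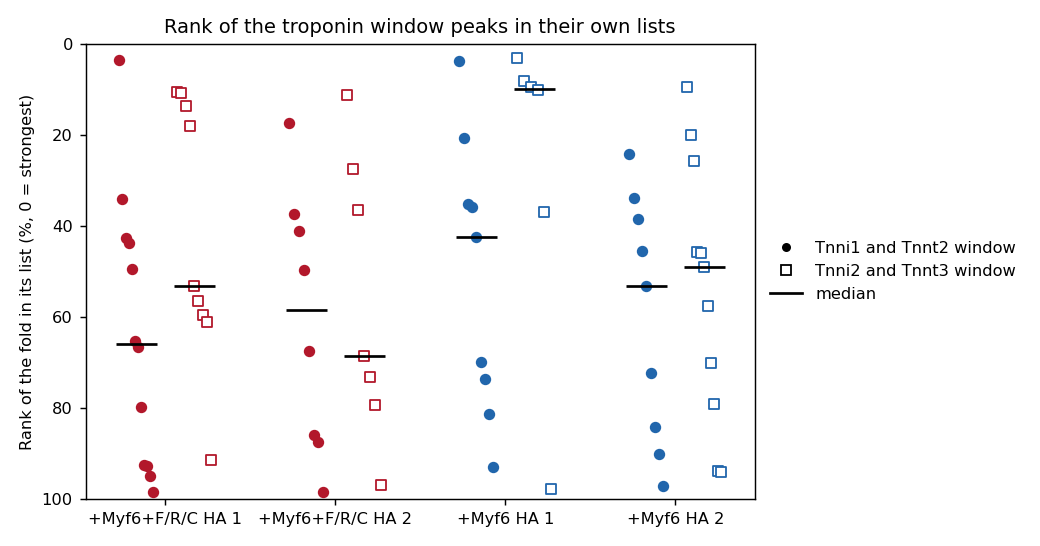
Rank of the fold of each peak within its own list (y axis, in %, with 0 the strongest) for the 4 induced HA libraries, with filled circles for the Tnni1 and Tnnt2 window, open squares for the Tnni2 and Tnnt3 window and lines at the median. Most peaks of both windows lie below the strongest 10% of their list.

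H3K27me3 peaks were called in both windows in +Myf6+F/R/C cells. They shared bases with 3 of the 13 regions in at least 2 induced HA lists, against 32.6% of such regions over the genome. The single library had 7 peaks at Tnni1 and Tnnt2 that covered 4166 bp, and 8 at Tnni2 and Tnnt3 that covered 3110 bp. The largest was a peak of 2571 bp at 135.695 Mb (chr1:135693923-135696493) with a pileup of 111 fragments over an expected 34.1, a fold of 3.19 and a −log10 q of 22.2. No HA or IgG list had a peak on it, and the nearest induced HA summit was 2872 bp away. The strongest in the other window was a peak of 1126 bp at 142.087 Mb (chr7:142086497-142087622), with a fold of 7.06 and a pileup of 24 fragments. HA peaks on it were weak, 1 in +Myf6+F/R/C replicate 2 (fold 4.24) and 1 in +Myf6 replicate 2 (fold 4.32), and they did not overlap each other.

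Of the regions in at least 2 induced HA lists, an H3K27me3 peak shared at least 1 bp with 1 of 7 at Tnni1 and Tnnt2 (14.3%) and with 2 of 6 at Tnni2 and Tnnt3 (33.3%), against 32.6% of such regions over the genome. Of the 8 regions in all 4 induced lists, 2 shared bases with an H3K27me3 peak, against 40.0%. The region at Tnni1 and Tnnt2 was the one at 135.707 Mb, and those at Tnni2 and Tnnt3 were at 142.036 and 142.054 Mb. The H3K27me3 peaks at these 3 had folds of 3.96, 4.27 and 4.22, and pileups of 14, 12 and 7 fragments. The region with the highest pileups, at 142.105 Mb, had no called H3K27me3 peak. The mark was called as narrow peaks over the local background, which a broad signal can itself raise. These overlaps therefore count called peaks only, and a region without one may still carry the mark. The mark was measured with the compounds only and once, so its change with Myf6 or the compounds cannot be read here. Its library is titled replicate 1, while its name has the prefix of +Myf6+F/R/C replicate 2.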

How the data were processed

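The deposited files are narrow peak lists, 1 per library, called separately per replicate on GRCm39. Per the submitters' processing notes MACS2, deepTools and DiffBind were used. The aligner, versions and filters: not given in the sources used here. For each summit the authors deposited a fold (a ratio to local background) and p-values and q-values on a −log10 scale. The lists hold peaks down to a −log10 q of 1.30.

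Peaks on chromosomes 1 to 19, X and Y were used. Summit pileup k and expected pileup λ were solved from the fold, (k + 1)/(λ + 1), and the Poisson tail of k, which gave whole pileups within 0.002 of the deposited −log10 p for at least 99.9% of peaks per list. Recovery was tested on simulated data. Depth is the lowest λ of a list times 10 kb over its narrowest peak. Rescaling to a lower depth multiplied k and λ by the ratio of depths, with no random draw, and kept peaks whose −log10 p was still at or above the minimum in the shallower list. It ignores that lists differ in fragment length (104 to 172 bp). Scripts used Python 3.11.15, numpy 2.4.6, pandas 2.3.3 and scipy 1.17.1.

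Libraries were grouped by their titles. Peak numbers were compared with exact two-sided permutation tests over libraries, and the windows with exact sign flips within libraries. Regions named are those in at least 3 of 4 induced HA lists. Members, lists and rules were chosen with earlier results of these data known. Per the labels' protocols, nuclei of a sample were divided between the HA and IgG reactions, which pairs these libraries. Sequence under the peaks, gene positions in GRCm39, other thin filament genes and the spike-in were not analysed here. RefSeq tables of GRCm38.p6 gave gene order and promoter sequences.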

Additional observations from a re-analysis of the deposited data

Results flagged for a closer look

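The number of peaks at Tnni2 and Tnnt3 in the induced IgG libraries was picked out because 1 library stood apart from the other 3. +Myf6 replicate 2 had 1 peak and the others 0. Of 24 sets of 4 libraries examined this way it was the single one found, and chance alone picks out about 1 in 20.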

How the results depend on the processing

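Of 149 recomputed values, 90 were counted as unchanged and 24 kept the direction but no longer had an unadjusted p below 0.05. A further 25 moved and 10 reversed. Comparisons of 2 libraries against 2 can never pass 0.05, so for them unchanged means only the same direction, even where 9 fell to 0.5. Counts have no p-value, and unchanged there allows a step such as 4 to 6 sites. The number unchanged is thus no measure of stable size. Where no reason is given the cause was not tested. For the excess of HA over IgG peaks at Tnni1 and Tnnt2, the difference was 0.5 with a −log10 q of at least 10, 0.5 with all lists scaled to the shallowest IgG depth, 1.75 scaled to the paired IgG depth (an alternative chosen after seeing the data) and 9.5 with the replicate block (exact permutation p = 0.125, the smallest 4 pairs allow). At Tnni2 and Tnnt3 it was 2, 1.5, 3.5 and 8 (block p = 0.125, exact permutation). The excess over cells without doxycycline, 7.5 to 9 in all lists, kept its direction but was 3 to 5 at a −log10 q of at least 5 and 0.5 to 2.5 at at least 10. Leaving out 1 library gave for HA over IgG 8.67 to 10.0 and 7.08 to 8.75, each with an exact permutation p of 0.0571, the smallest that 3 libraries against 4 allow. The peak number of +Myf6+F/R/C minus +Myf6 cells at Tnni1 and Tnnt2 was 0 at a −log10 q of at least 10 and -0.5 scaled to the shallowest library, and -1 to 3 without 1 library (-1 without +Myf6+F/R/C replicate 1). At Tnni2 and Tnnt3 it was 1 at a −log10 q of at least 5 and at least 10, and -3 to 2 without 1 library (0.5 without +Myf6+F/R/C replicate 2, 2 without +Myf6 replicate 2). The difference in density between the windows was -0.0862 at a −log10 q of at least 5 and -0.855 at at least 10. That in highest fold was 0.419 in +Myf6+F/R/C cells alone and -0.627 to 0.212 without 1 library, with 0.212 without +Myf6 replicate 2.

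Sites of +Myf6+F/R/C at Tnni1 and Tnnt2 numbered 1 at a −log10 q of at least 5, 0 at at least 10, 5 with IgG lists as the only controls and 5 with no control filter. Those of +Myf6 numbered 1 and 0 at these q-values. At Tnni2 and Tnnt3, +Myf6+F/R/C sites numbered 1 at a −log10 q of at least 10 and 1 with summits within 200 bp, and +Myf6 sites numbered 2 and 0 at the 2 q-values and 3 with summits within 200 bp. With 1 list of a treatment in place of 2, which by construction asks for less, +Myf6+F/R/C sites numbered 6 to 10 and +Myf6 sites 7 at Tnni1 and Tnnt2, and 6 to 7 and 5 to 9 at Tnni2 and Tnnt3. Recurrent regions with an H3K27me3 peak numbered 0 in each window when that peak had to have a −log10 q of at least 5 or at least 10, or to hold an HA summit.

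Between +Myf6+F/R/C and +Myf6 HA libraries of the same number, deviations correlated by 0.113 over 71864 regions, but there are only 2 pairs and the labels name no shared batch, so these numbers were not taken as pairs. Windows drawn from gene bodies were not run, as no GRCm39 annotation was used here. Low pileups limit all counts: peaks at or near the lowest callable pileup can be lost in a shallower library.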

Other observations

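Of the troponin genes outside the 2 windows, the RefSeq promoter windows (GRCm38.p6) of Tnnc1, the slow and cardiac troponin C, and Tnnc2, the fast troponin C, held 2 E-boxes each. Those of Tnnt1, the slow troponin T, and Tnni3, the cardiac troponin I, held 1 each. At least 2 were found in 31.8% of all promoter windows and at least 1 in 66.2%.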
